A study of Mus musculus with 5 samples.

Results

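The genes described here are Nfe2l2, which encodes the transcription factor Nrf2, its inhibitor Keap1, and 8 antioxidant genes known as Nrf2 targets, namely Hmox1, Slc7a11, Gclc, Gclm, Gsr, Txnrd1, Srxn1 and Nqo1. They are 10 of the 42454 features of the data and were found by exact symbol. They were selected on their high counts in a library of C12FDG-sorted lung cells, so their difference between sorted and unsorted cells is given as a description and nothing is read from it. The single-cell RNA-seq data comprised 5 libraries of C57BL/6J mouse lung cells. Unsorted libraries came from mice kept in air and from mice exposed to hyperoxia (>95% O2) for the first 3 days of life and then returned to room air, with lungs taken at pnd7 and at pnd60. In the sorted library, the lungs of 3 mice with the same hyperoxia exposure were pooled at pnd7 and cells that cleave C12FDG, a fluorescent substrate of the β-galactosidase used as a mark of senescence, were collected by FACS. C12FDG-sorted cells of mice kept in air were not analysed here, and the unsorted libraries at pnd7 had been made for an earlier study. Sorting and the separate preparation therefore cannot be told apart, and the number of mice in the unsorted libraries is not given in the sources used here.

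Nrf2 is held at a low level in unstressed cells by Keap1, an adaptor that hands it to a ubiquitin ligase for degradation. Oxidants and electrophiles modify cysteines of Keap1, Nrf2 then accumulates, pairs with a small Maf protein and binds antioxidant response elements near its target genes. These targets supply glutathione and thioredoxin, break down heme and reduce quinones, and mice that lack Nrf2 are known to be more sensitive to hyperoxic lung injury. Much of this control acts on the Nrf2 protein, which RNA counts do not measure.

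The promoters are shown because the antioxidant response element is the sequence through which Nrf2 is known to reach these genes. RefSeq windows (GRCm38.p6) from 250 bases before to 50 bases after a start site were matched for 7 of the 10 genes, and Hmox1, Gclc and Gsr had no entry. The core of the element was searched as TGACNNNGC on both strands, and 4 of the 7 genes held it, against 14% of all 27025 genes. The match began 240 bases before the start site in Nfe2l2, 134 bases before it in Gclm and 92 bases before 1 of the start sites of Txnrd1. In Srxn1 it began 28 bases after the start site. The windows of Keap1, Slc7a11 and Nqo1 held no match, which says only that these letters are not in these windows. The first 3 stretches below are the 250 bases before the start site and the last is the match in Srxn1 with 10 bases on each side. Each is written 5′ to 3′ in the direction of the gene with the match in capitals, and a match is a description of the sequence, not a measured site.
Nfe2l2, chr2:75704664-75704913, minus strand: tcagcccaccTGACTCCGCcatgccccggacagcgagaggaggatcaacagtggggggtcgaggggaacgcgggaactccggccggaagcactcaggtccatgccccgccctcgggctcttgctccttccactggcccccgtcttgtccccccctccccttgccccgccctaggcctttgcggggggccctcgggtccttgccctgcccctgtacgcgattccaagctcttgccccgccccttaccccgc
Gclm, chr3:122245307-122245556, plus strand: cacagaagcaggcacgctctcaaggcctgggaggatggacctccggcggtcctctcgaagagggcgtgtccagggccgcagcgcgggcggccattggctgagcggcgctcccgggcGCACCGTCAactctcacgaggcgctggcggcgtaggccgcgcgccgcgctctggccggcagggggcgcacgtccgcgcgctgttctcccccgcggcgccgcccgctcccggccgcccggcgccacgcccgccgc
Txnrd1, chr10:82858956-82859205, plus strand: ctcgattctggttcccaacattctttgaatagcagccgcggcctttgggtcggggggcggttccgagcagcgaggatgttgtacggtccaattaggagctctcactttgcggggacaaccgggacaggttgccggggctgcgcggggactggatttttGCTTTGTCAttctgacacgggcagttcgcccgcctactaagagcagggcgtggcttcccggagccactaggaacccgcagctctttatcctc
Srxn1, chr2:152105542-152105570, plus strand: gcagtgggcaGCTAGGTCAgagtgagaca

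By the GENCODE annotation of GRCm38, Nfe2l2 lies at chr2:75675513-75704641 and Keap1 at chr9:21229730-21239361, both on the minus strand. Hmox1 (chr8:75093621-75100589, plus strand), Gsr (chr8:33652523-33698163, plus) and Nqo1 (chr8:107388225-107403206, minus) share a chromosome. Slc7a11 lies at chr3:49892526-50443614 on the minus strand. On the plus strand are Gclm (chr3:122245557-122270732), Gclc (chr9:77754535-77794485), Txnrd1 (chr10:82833951-82897712) and Srxn1 (chr2:152105516-152111376).

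After removal of barcodes with under 700 or over 8000 genes or with 5% or more mitochondrial counts, 2308 air and 1246 hyperoxia cells at pnd7, 493 sorted cells, and 4397 air and 4756 hyperoxia cells at pnd60 remained. They held 7880365 to 16648251 counts per library, with a median of 2168 to 7120 counts per cell in unsorted libraries and 15529 in the sorted one. Pairs of unsorted libraries shared at most 4 barcodes among these cells, and the sorted library shared 0 with any other. Levels are CPM, the counts of a gene per 1000000 counts of a library or class of cells, with exact Poisson intervals. Differences are log2 ratios of CPM with exact binomial intervals, and shares have exact Clopper-Pearson intervals. All intervals are at 95% and hold the error of counting alone, as every condition was measured in 1 library, which gave no replicates, no test and no p-value. A ratio was called higher or lower where it was at least 1 in size, which is 2-fold, and the gene had at least 100 counts in both groups together. Different genes are set beside each other only by rank in counts or in share of cells, and by counts per 100 Hmox1 counts. These values are descriptions.

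Over all cells, Nfe2l2 and 7 of the 8 target genes were at their highest level in the sorted library, while Gclc was highest at pnd60 and Keap1 lay between 46.7 and 62.9 CPM everywhere. Nfe2l2 was at 143 CPM in air and 156 CPM in hyperoxia at pnd7, 420 CPM in sorted cells, and 153 and 152 CPM in air and hyperoxia at pnd60. Only the sorted library stood apart for this gene. Keap1 was at 49.5, 53.2, 46.7, 62.9 and 62.4 CPM in the same order, so that the sorted library had the lowest level and those at pnd60 the highest.

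Hmox1 encodes the inducible heme oxygenase, which opens the heme ring and frees its iron. Its level was 39.4 CPM in air and 77.9 CPM in hyperoxia at pnd7, 7435 CPM in sorted cells, and 49.7 and 53.4 CPM in air and hyperoxia at pnd60. In the sorted library it was the 8th gene by counts, with 58592 of them, and 98.4% of cells had at least 1 count. Slc7a11, the light chain of the antiporter that brings in cystine for glutathione, was at 3.36 and 5.82 CPM at pnd7, 661 CPM in sorted cells, and 2.85 and 3.45 CPM at pnd60. It was detected in 85.6% of sorted cells and in 0.728% to 2.01% of cells of each unsorted library.

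Glutamate-cysteine ligase makes the first bond of glutathione with a catalytic subunit from Gclc and a modifier subunit from Gclm. Gclc was at 69.9 CPM in air and 81.5 CPM in hyperoxia at pnd7, 252 CPM in sorted cells, and 269 and 267 CPM at pnd60. Gclm was at 63.3, 57.2, 365, 39.5 and 36.6 CPM in that order. The subunits thus differed with age, Gclc being higher and Gclm lower at pnd60 than at pnd7 among unsorted libraries. Gsr, which reduces oxidized glutathione, was at 91.7 and 96.6 CPM at pnd7, 315 CPM in sorted cells, and 117 and 141 CPM at pnd60.

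Txnrd1, the cytosolic thioredoxin reductase, was at 61.2 CPM in air and 67.9 CPM in hyperoxia at pnd7, 598 CPM in sorted cells, and 62.4 and 56.4 CPM at pnd60. Srxn1, sulfiredoxin, which repairs overoxidized peroxiredoxins, was at 7.09, 7.22, 153, 12.6 and 11.3 CPM in that order. Nqo1, a quinone reductase, had 35, 33, 50, 69 and 56 counts, or 2.10, 2.43, 6.35, 4.68 and 3.39 CPM. It was detected in 7.51% of sorted cells and 1.11% to 2.17% of unsorted cells, so that its ratios have wide intervals. This was the least of the 10 genes in the sorted library and in air at pnd7. In the other unsorted libraries Slc7a11 was detected in fewer cells.

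**Figure D1:**
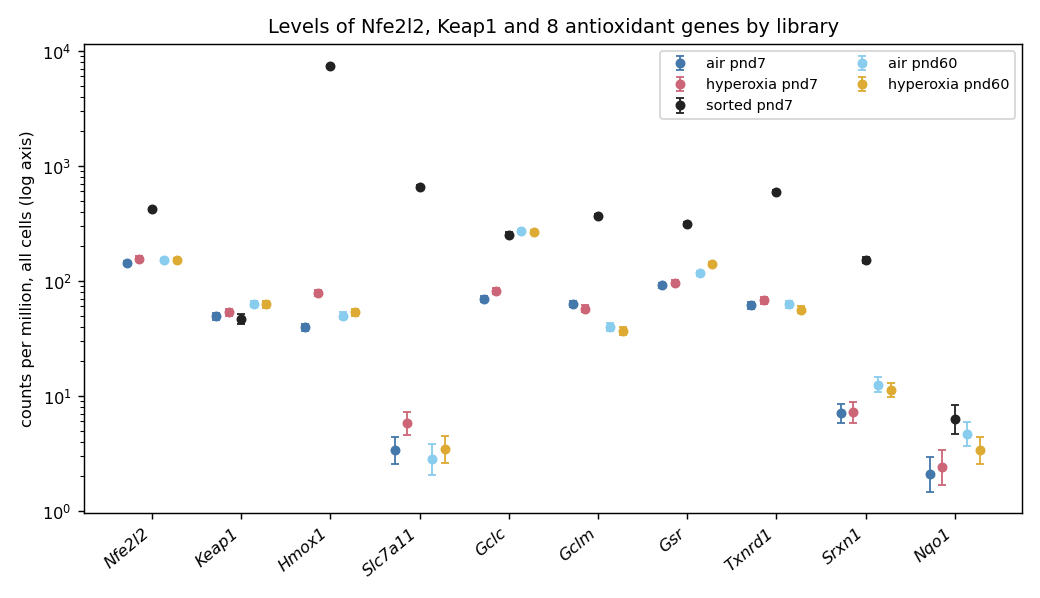
CPM of the 10 genes over all cells of each library, on a log axis, with 95% Poisson intervals as bars. Sorted cells (black) lie above every unsorted library except for Keap1, where they are lowest at 46.7, and for Gclc, where the pnd60 libraries reach 267 to 269.

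Sorted cells were set against unsorted hyperoxia cells at pnd7, a contrast taken here to lie behind the choice of these genes. Of the 9 genes with enough counts, 8 were called higher in sorted cells and 0 lower. Of 11340 genes, 8.17% were called higher and 36.4% lower. The log2 ratio was 6.83 (6.51 to 7.17) for Slc7a11, 6.58 (6.49 to 6.67) for Hmox1, 4.40 (4.11 to 4.72) for Srxn1 and 3.14 (3.04 to 3.24) for Txnrd1. Gclm at 2.67, Gsr at 1.71, Gclc at 1.63 and Nfe2l2 at 1.42 followed. Keap1 was at -0.19 (-0.37 to 0.00), and Nqo1, with 83 counts in both libraries together, was at 1.38 (0.72 to 2.06). The median of the 9 genes was 2.67 and that of all genes compared was -0.55.

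The mix of cells differed between these libraries. Of the 493 sorted cells, 409 were alveolar macrophage-like and 51 C1q macrophage-like, against 64 and 19 of 1246 unsorted hyperoxia cells and 115 and 20 of 2308 air cells. Classes were named from clusters and their markers, with the 10 genes and the gene lists below left out of the clustering. Macrophage-like cells held 93.5% of all counts in the sorted library and 8.37% in the hyperoxia library at pnd7. Of the sorted alveolar macrophage-like cells, 364 lay in a cluster of 377 cells that was almost wholly of that library and 45 in a cluster led by cell cycle genes. The first was led by Hmox1, Slc7a11, Mt1, Mmp12, Mt2 and Gdf15 and had 9 of 12 alveolar macrophage markers raised, but none of these among its 10 leading genes, so that it may stand for the library as much as for a cell type.

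Within macrophage-like cells, the picture was split. Hmox1, Slc7a11, Srxn1, Txnrd1, Gclc, Gclm and Nfe2l2, 7 of the 9 genes with enough counts, were called higher in sorted than in unsorted hyperoxia cells and 0 lower, where 4.02% of 7042 genes were called higher and 14.1% lower. Gsr and Keap1 were at the same level within counting error. Hmox1 was at 7732 CPM against 424 CPM, a log2 ratio of 4.19 (4.06 to 4.32), and Slc7a11 at 698 against 42.2 CPM, a ratio of 4.05 (3.64 to 4.49). Both unsorted levels rested largely on 1 cell, described below.

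For the thioredoxin genes in macrophage-like cells, Srxn1 was at 159 against 15.8 CPM, a log2 ratio of 3.32 (2.66 to 4.08), and Txnrd1 at 615 against 99.4 CPM, a ratio of 2.63 (2.36 to 2.91). Both subunits of glutamate-cysteine ligase gave 2.60, with Gclc at 239 against 39.6 CPM and Gclm at 379 against 62.5 CPM. Nfe2l2 was at 417 against 187 CPM, a ratio of 1.16 (0.96 to 1.37). Nqo1 had 44 counts in sorted and 1 in unsorted cells.

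Gsr was at 329 CPM in sorted and 321 CPM in unsorted macrophage-like cells, a log2 ratio of 0.04 (-0.12 to 0.20). Its ratio of 1.71 over all cells came with a level in unsorted macrophage-like cells above the 96.6 CPM of the whole hyperoxia library. Keap1 was also at 0.04 (-0.38 to 0.48). Against air macrophage-like cells at pnd7, Gsr was at 0.40 (0.25 to 0.57). The same 7 genes were called higher, Hmox1 at 6.16 and Slc7a11 at 5.85, where 3.81% of 7200 genes were called higher and 14.3% lower.

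**Figure D2:**
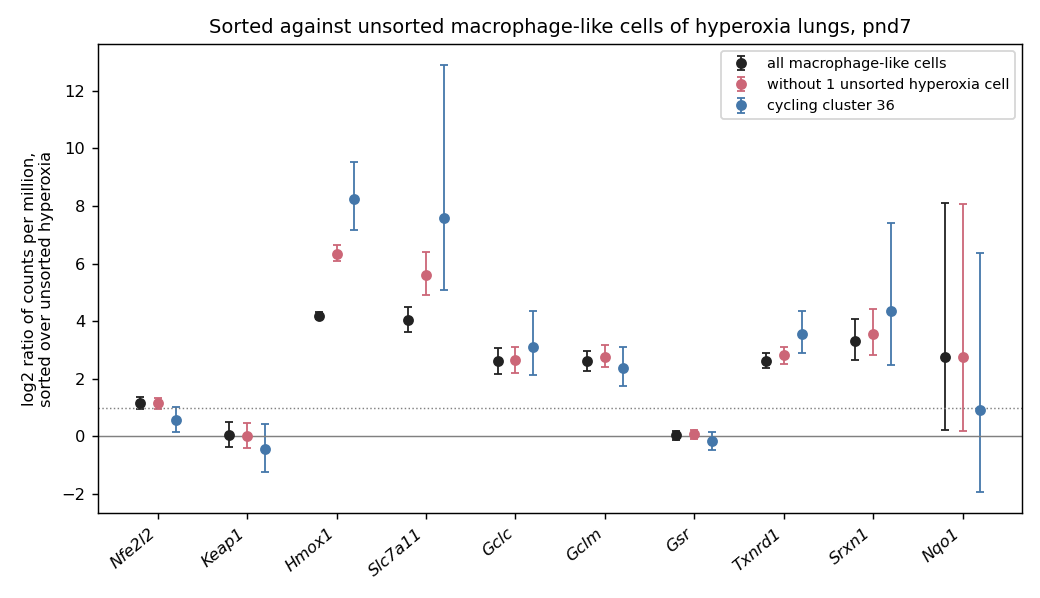
Log2 ratio of CPM between sorted and unsorted hyperoxia macrophage-like cells at pnd7 for the 10 genes, with 95% binomial intervals. Black points use all such cells, red points leave out 1 unsorted cell and blue points are the cluster led by cell cycle genes. The dotted line marks 1. The intervals of Keap1 and Gsr hold 0 in all 3, while Hmox1 goes from 4.19 to 6.35 without that cell.

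The classes differed in these values. Of the 51 sorted C1q macrophage-like cells, 50 lay in 1 cluster. All 19 unsorted hyperoxia cells of this class lay in another cluster, which held 1 sorted cell. The ratios of this class therefore set 1 cluster against another, and library and cluster cannot be told apart in them. In C1q macrophage-like cells, Hmox1 was at 6708 CPM in 51 sorted and 159 CPM in 19 unsorted hyperoxia cells, a log2 ratio of 5.40 (4.94 to 5.90). Slc7a11 had 206 counts against 0 there, at least 4.38 on the log2 scale when the unsorted cells are set to 3 counts. Nfe2l2 was at 787 against 196 CPM, a ratio of 2.00 (1.57 to 2.46), beside 1.02 (0.79 to 1.25) in alveolar macrophage-like cells. Gsr was at 118 against 45.9 CPM (1.36, 0.46 to 2.41), on 93 and 11 counts, beside 354 against 394 CPM (-0.15, -0.32 to 0.01) in the alveolar class. Ratios of all genes also spread more widely in the C1q class, with 19.4% of 1646 genes called higher and 8.32% lower. In the alveolar class these shares were 3.91% and 13.5% of 6629 genes. The ratio of Nfe2l2 was above that of 92.4% of genes in the C1q class and 96.2% in the alveolar class. For Gsr these values were 86% and 58%. Whether the classes differ was not tested.

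The cluster led by cell cycle genes, among them Top2a and Mki67, is where sorted and unsorted alveolar macrophage-like cells fell together, with 45 sorted, 13 hyperoxia and 13 air cells at pnd7. Hmox1 was at 8572 CPM in sorted, 28.6 CPM in hyperoxia and 43.6 CPM in air cells of this cluster, and sorted against hyperoxia the log2 ratio was 8.23 (7.18 to 9.54). Slc7a11 was at 784, 4.09 and 21.8 CPM, the hyperoxia level being 1 count. Txnrd1 was at 821 against 69.5 CPM in hyperoxia (3.56) and Gclc at 284 against 32.7 CPM (3.12), while Gsr was at 379 against 429 CPM (-0.18, -0.49 to 0.14). The order of the genes was much as over all macrophage-like cells. These cells are a part of that class, so this is not a separate observation. Keap1 and Gsr were within counting error and Nfe2l2 was at 0.57 (0.14 to 1.02).

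Single cells separated the libraries by Hmox1. In alveolar macrophage-like cells, Hmox1 ran from 635 CPM through a median of 7401 to 26933 CPM in the sorted library. Of those 409 cells, 407 (99.5%, 98.2% to 99.9%) reached 1000 CPM, and 298 reached 5000 CPM. At 1000 CPM or more there were 0 of 115 air cells (up to 3.16%), 1 of 64 hyperoxia cells, 1 of 188 air cells at pnd60 and 5 of 195 hyperoxia cells at pnd60. The median was 0 CPM in each unsorted library but hyperoxia at pnd7, where it was 51.2 CPM.

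**Figure D3:**
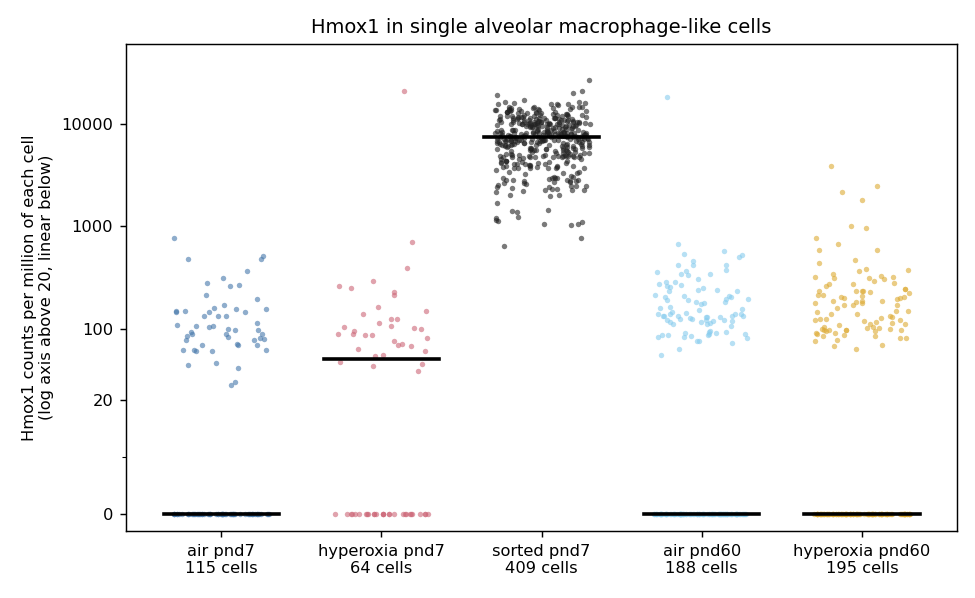
Hmox1 in CPM in each alveolar macrophage-like cell, by library, on an axis that is linear below 20 and logarithmic above. Points are cells and black bars are medians, at 7401 in sorted cells and at 0 or 51.2 in unsorted ones. Single unsorted cells lie at 20912 (hyperoxia pnd7) and 18237 (air pnd60).

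The libraries differed in depth, so shares are also given at 1 depth. When each macrophage-like cell was thinned to 1000 counts, Hmox1 was detected in 97.6% of sorted cells, against 8.15% and 9.64% in air and hyperoxia at pnd7 and 12.3% and 10.4% at pnd60. Without thinning the shares were 100%, 51.9%, 61.4%, 43.9% and 44.6%, at a median of 6659 to 15610 counts per cell. Slc7a11 was detected after thinning in 42% of sorted cells and in 0% to 1.19% of unsorted ones, and Srxn1 in 14.8% and in 0.741% to 2.39%. T-like cells of the unsorted libraries, taken as a measure of background there, gave 0% to 0.406% for Hmox1 after thinning and 0.35% to 5.45% before, at a median of 2339 to 5964 counts per cell. The sorted library held 0 T-like cells, so its own background was not measured.

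A few sorted cells were not macrophage-like. In 9 type I-like cells, alveolar epithelial cells by their markers, Hmox1 was at 3062 CPM (2804 to 3338), against 20.9 CPM in 43 unsorted hyperoxia cells of that class. Gclc was at 705 against 78.3 CPM, Txnrd1 at 622 against 67.9 CPM and Slc7a11 at 190 against 0 CPM in these cells. In 8 type II-like cells, the surfactant-producing cells of the alveolus, Hmox1 was at 662 against 46.9 CPM. For every 100 Hmox1 counts, the type I-like cells had 0.193 counts (0.00489 to 1.08) of the macrophage receptor Marco and 20.3 (16.3 to 25.2) of Txnrd1. Sorted alveolar macrophage-like cells had 2.75 (2.62 to 2.90) and 7.89 (7.64 to 8.14). Mmp12, a leading gene of the main sorted cluster, was at 1.74 (0.791 to 3.33) in type I-like cells, on 9 counts. It was at 6.95 (6.71 to 7.18) in sorted alveolar macrophage-like cells. Between the alveolar and C1q macrophage-like classes Marco (2.75 and 2.84) and Txnrd1 (7.89 and 8.53) were close. Gclm was at 4.86 counts (4.67 to 5.06) in alveolar and 5.23 (4.61 to 5.90) in C1q macrophage-like cells. It was at 5.42 (3.56 to 7.92) in type I-like and 4.72 (1.5 to 11.4) in type II-like cells, but 2.73 (1.44 to 4.71) in cells of unnamed clusters. Other genes varied more, Nfe2l2 being at 4.74, 11.7, 10.1 and 67 counts in the 4 named classes in that order. Slc7a11 was at 9.56 in alveolar and 3.9 in C1q macrophage-like cells. Whether free RNA adds to the values of the epithelial-like cells was not tested.

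Markers of other cells also differed between the sorted and unsorted libraries. The summed level of the 7 erythroid markers in macrophage-like cells was 6628 CPM in air, 16700 CPM in hyperoxia and 12.8 CPM in sorted cells, with Alas2 and Slc4a1 at 0 in the last. The 12 type II markers summed to 7084, 339 and 1310 CPM, all 12 being detected in sorted cells. The 11 C1q macrophage markers summed to 2526, 3444 and 1099 CPM and the 12 alveolar macrophage markers to 5125, 5983 and 4537 CPM. Within the classes, sorted against unsorted hyperoxia, type II markers with enough counts had a median log2 ratio of 5.34 in C1q macrophage-like cells (3 genes). In alveolar macrophage-like cells it was 0.05 (4 genes). C1q macrophage markers had a median of -0.71 in C1q macrophage-like cells (7 genes). Erythroid markers were lower in both classes, at -11.61 and -8.28 in C1q and alveolar macrophage-like cells. The part of these markers in the ratios above was not tested.

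Hyperoxia against air at pnd7 asks whether these genes differed after the exposure and the days in room air that followed. Over all cells, 0 of the 9 genes of the set with enough counts were called, where 0.183% of 12591 genes were called higher and 0.802% lower. The median log2 ratio of the 9 genes was 0.13, against -0.02 for all genes. Hmox1 was at 0.98 (0.84 to 1.13) and Slc7a11 at 0.79 (0.28 to 1.31). Gclc at 0.22 (0.10 to 0.34), Txnrd1 at 0.15 (0.02 to 0.28) and Nfe2l2 at 0.13 (0.04 to 0.21) were above 0 by less. Gclm was lower at -0.14 (-0.28 to -0.01), and Keap1, Gsr, Srxn1 and Nqo1 were within counting error.

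For Hmox1 and Slc7a11 these ratios rested on 1 cell. An alveolar macrophage-like cell of the hyperoxia library with 17980 counts held 376 of the library's 1058 Hmox1 counts (35.5%) and 32 of its 79 Slc7a11 counts (40.5%). Its Hmox1 level of 20912 CPM lay within the range of the sorted cells, as did Slc7a11 at 1780 CPM and Txnrd1 at 834 CPM, although it had 0 counts of Nfe2l2. It had 109 counts of Chil3 and 8 of Marco, both alveolar macrophage markers. Without it the ratio over all cells was 0.35 (0.20 to 0.51) for Hmox1 and 0.04 (-0.55 to 0.63) for Slc7a11.

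In alveolar macrophage-like cells, 64 from hyperoxia and 115 from air, Hmox1 was at 495 against 70.5 CPM, a log2 ratio of 2.81 (2.48 to 3.16), and without that cell at 77.3 CPM, a ratio of 0.13 (-0.35 to 0.61). Without it Gsr was at 0.48 (0.26 to 0.70), from 387 against 277 CPM, and Nfe2l2 at 0.42 (0.10 to 0.74), from 188 against 140 CPM. Keap1 was at 0.35 (-0.28 to 0.97) and Gclm at 0.02 (-0.53 to 0.55), both within counting error. Sorted against unsorted hyperoxia cells of the class without that cell, Hmox1 was at 6.67 (6.32 to 7.03) in place of 3.99 and Slc7a11 at 5.37 (4.67 to 6.17) in place of 3.81.

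In other classes at pnd7 most ratios lay near 0. In type II-like cells, Hmox1 was at 46.9 CPM in hyperoxia and 40.5 CPM in air (0.21, -0.20 to 0.62) and Gclc at 226 against 217 CPM (0.06, -0.12 to 0.24). Nfe2l2 was at 255 against 288 CPM there, a ratio of -0.18 (-0.34 to -0.01). In endothelial-like cells Nfe2l2, Gclm, Gsr and Txnrd1 lay between 0.04 and 0.21, all within counting error. Txnrd1 in myofibroblast or smooth muscle-like cells was at 78.3 against 58.2 CPM (0.43, 0.09 to 0.76), and Gclc in type I-like cells at 78.3 against 112 CPM (-0.51, -0.99 to -0.05). The type I-like cells differed in depth, with a median of 12416 counts in hyperoxia and 2076 in air. By marker counts without clustering, 41 of the 43 hyperoxia and 144 of the 220 air cells kept that name. Gclm in erythroid-like cells was at 136 against 58.9 CPM (1.21, 0.63 to 1.78), on 42 and 73 counts in a class where 13.3% of genes were past 1 in size, and at 0.92 without the top cell of each library. It was detected in 15.4% of these hyperoxia cells and 12.8% of the air cells. By marker counts without clustering, 7 of the 78 hyperoxia and 276 of the 514 air cells were also erythroid-like. The 2 sides may therefore not be the same kind of cell.

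At pnd60 the hyperoxia and air libraries were closer still. Over all cells, 0 of the 9 genes of the set with enough counts were called, where 0.271% of 12928 genes were called higher and 0.248% lower, and the median of the 9 was -0.01. Gsr was at 0.28 (0.18 to 0.37) and Txnrd1 at -0.15 (-0.28 to -0.01). The other 8 genes were within counting error, Nfe2l2 at -0.01 (-0.09 to 0.07) and Nqo1 at -0.47 on 56 and 69 counts. The mix of cells differed here too. Neutrophil-like, classical and nonclassical monocyte-like cells numbered 31, 116 and 139 in air and 60, 146 and 187 in hyperoxia. They held 98, 307 and 279 of the 1722 Gsr counts in air. In hyperoxia they held 218, 495 and 439 of 2337. The part of this mix in the ratio of Gsr was not tested.

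Within myeloid classes at pnd60, Gsr was at 0.40 (0.05 to 0.76) in neutrophil-like, 0.28 (0.07 to 0.49) in classical monocyte-like, 0.16 (-0.06 to 0.38) in nonclassical monocyte-like and -0.05 (-0.22 to 0.13) in alveolar macrophage-like cells. The last 2 of these were within counting error, as was -0.29 (-1.15 to 0.57) in mast or basophil-like cells, on 25 counts in each library. Ciliated-like cells had Gsr at 297 against 190 CPM (0.65, 0.17 to 1.14) but Txnrd1 at 246 against 432 CPM (-0.81, -1.21 to -0.42) and Gclc at 463 against 619 CPM (-0.42, -0.73 to -0.11), in 32 and 34 cells. Gclc was also lower in fibroblast-like cells at -0.63 (-1.10 to -0.17) and in alveolar macrophage-like cells at -0.42 (-0.81 to -0.03). Gclm was lower in type II-like cells at -0.69 (-1.22 to -0.16).

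Hmox1 at pnd60 took different signs by class. It was at 192 CPM in hyperoxia and 123 CPM in air in alveolar macrophage-like cells, a ratio of 0.64 (0.37 to 0.90), with 27.5% and 22.3% of those counts in 1 cell of each library. In nonclassical monocyte-like cells it was at 83.3 CPM in hyperoxia and 374 CPM in air, a ratio of -2.17 (-2.69 to -1.67). The 44 hyperoxia counts lay in 31 cells and the 140 air counts in 25 cells. The share of cells with a count was thus similar, at 16.6% of 187 and 18% of 139. The difference therefore lay in the counts per detected cell. Of the 140 air counts 43 came from 1 cell, and without the top cell of each library the ratio was -1.89 (-2.48 to -1.33). Type II-like cells had 104 against 86.3 CPM (0.27, 0.03 to 0.51).

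Age was compared in air. From pnd7 to pnd60 over all cells, 2 of the 9 genes with enough counts, Gclc at 1.95 (1.85 to 2.04) and Nqo1 at 1.15 (0.55 to 1.78), were called higher, where 15.1% of 13003 genes were. The median of the 9 was 0.35 and that of all genes 0.23. Srxn1 was at 0.82 (0.48 to 1.17) and Gclm at -0.68 (-0.83 to -0.53). Nfe2l2 was at 0.09 (0.01 to 0.18), and Slc7a11, with 56 and 42 counts, at -0.24 (-0.85 to 0.36). Cells per class also differed between the ages, so the values within classes follow.

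Gclc was higher at pnd60 in most of the classes where it could be compared. In type II-like cells it was at 217 CPM in air and 226 CPM in hyperoxia at pnd7, and at 995 and 969 CPM at pnd60, so that the ages did not overlap. The log2 ratio was 2.19 (2.06 to 2.33) in air and 2.10 (1.96 to 2.24) after hyperoxia. In air it was also called higher in fibroblast-like cells at 2.27 (1.64 to 2.94), T-like cells at 1.59 (0.87 to 2.38) and endothelial-like cells at 1.35 (0.81 to 1.93), 4 of 7 classes in all. Type I-like cells went the other way in air at -0.94 (-1.86 to -0.14), on 118 counts at pnd7 and 14 at pnd60. The air cells at pnd7 were those of low depth and less certain name described above. After hyperoxia, type I-like cells were at 78.3 CPM at pnd7 and 96.15 CPM at pnd60, on 60 and 29 counts. In type II-like cells 12.6% of genes were past 1 in size, and in the other classes named here 23.4% to 35.8%.

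Other genes followed age in fewer classes. Hmox1 in type II-like cells was at 40.5 and 46.9 CPM at pnd7 and at 86.3 and 104 CPM at pnd60, ratios of 1.09 in air and 1.15 after hyperoxia. In C1q macrophage-like cells Hmox1 was lower at pnd60 in air, 120 against 309 CPM (-1.37, -2.05 to -0.72), on 28 and 73 counts. In that class 17.6% of 739 genes were called lower and 15.3% higher. Txnrd1 was lower in endothelial-like cells, 22.8 against 60.3 CPM in air (-1.40) and 21.2 against 62.8 CPM after hyperoxia (-1.57). Gclm in fibroblast-like cells was at 28.4 against 66.3 CPM in air (-1.23, -1.79 to -0.69).

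Across the unsorted classes with at least 20 cells in a library, several of these genes had a class of their own. Neutrophil-like, ciliated-like and both monocyte-like classes reached 20 cells only at pnd60. Club-like, erythroid-like and myofibroblast or smooth muscle-like classes did so only at pnd7. Class and age are therefore mixed in these ranges. Gsr ranged from 1486 to 1956 CPM in neutrophil-like cells, above and not overlapping nonclassical monocyte-like cells at 745 to 831 CPM and classical monocyte-like cells at 657 to 798 CPM, which overlapped each other. Slc7a11 was at 75.8 and 98.7 CPM in neutrophil-like cells, on 5 and 11 counts, and at 8.54 to 53.5 CPM in alveolar macrophage-like cells, the highest of these being the hyperoxia library at pnd7. That highest value rested on the 1 cell described above and was 18.2 CPM without it. Nfe2l2 was at 354 and 403 CPM in nonclassical monocyte-like cells, followed by type II-like, neutrophil-like and ciliated-like cells at 233 to 288 CPM, which overlapped.

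Ciliated-like cells, measured at pnd60 only, stood out for Txnrd1 and Gclm. In these cells, which move mucus along the airway, Txnrd1 was at 246 and 432 CPM and Gclm at 238 and 301 CPM, above every other unsorted class. Alveolar macrophage-like cells came next for Txnrd1 at 104 to 117 CPM. Gclc was at 463 and 619 CPM in ciliated-like cells, within the 217 to 995 CPM of type II-like cells. Cells named club-like, after the secretory cells of the airway, were at 49.3 CPM for Txnrd1 and 55.4 CPM for Gclc in air at pnd7. Their name is uncertain, as 6 of these 112 cells were club-like by marker counts without clustering. At resolution 1 that library had 1 club-like and 115 ciliated-like cells. Club-like and ciliated-like cells are therefore not set against each other here. Srxn1 was at 20.7 and 55.3 CPM in ciliated-like and 18.4 to 23.0 CPM in alveolar macrophage-like cells, which overlapped.

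Hmox1 was led by nonclassical monocyte-like cells at 83.3 to 374 CPM, C1q macrophage-like cells at 120 to 309 CPM and alveolar macrophage-like cells at 70.5 to 495 CPM, whose ranges overlapped. The 495 CPM, from hyperoxia at pnd7, rested on the 1 cell described above and was 77.3 CPM without it. Nqo1 was at 35 CPM in lymphatic endothelial-like cells of 1 library, on 7 counts, and at 12.9 and 24.2 CPM in ciliated-like cells. Keap1 was at 62.2 and 127 CPM in ciliated-like cells and overlapped from each of its leading classes to the next.

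**Figure D4:**
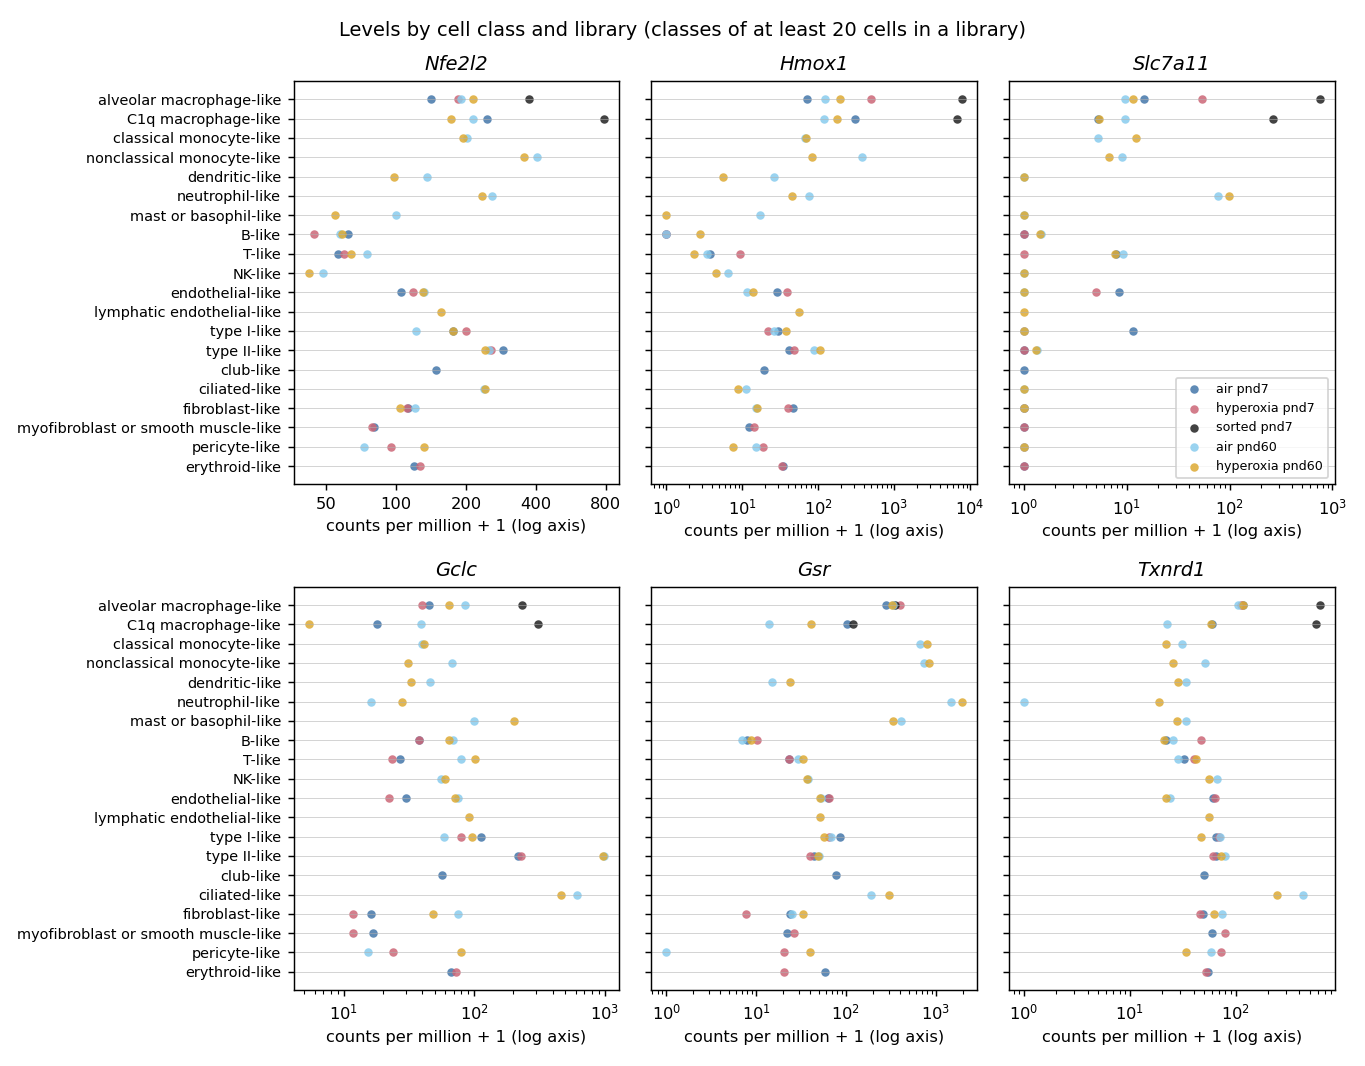
CPM plus 1 of 6 genes by cell class (rows), on log axes, with 1 point per library that had at least 20 cells of the class. Sorted macrophage-like cells (black) stand to the right for Hmox1, Slc7a11 and Txnrd1, while Gsr is highest in neutrophil-like cells (1486 to 1956) and Gclc in type II-like cells at pnd60 (969 to 995).

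Over the 56 groups of library and class with at least 20 cells, the genes most like Hmox1 in log2(CPM + 10) were Gdf15 (Pearson r 0.826), a stress cytokine, Cstb (0.820), an inhibitor of lysosomal cathepsins, and Vps26a (0.803). For Slc7a11 they were Gla (0.787), a lysosomal galactosidase, Clec4d (0.774) and Hmox1 (0.758), and for Nfe2l2 they were Rbm47 (0.826), Atf3 (0.820) and Atp6v1a (0.803). Among pairs of the 10 genes, Txnrd1 with Srxn1 gave 0.80, Nfe2l2 with Hmox1 0.79 and Gclm with Txnrd1 0.76, while Keap1 with Hmox1 gave -0.24. The groups share libraries and differ in depth, and the 2 sorted groups lie far from the rest, so these values are descriptions. Nqo1 was below the 500 counts needed for this comparison.

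Other genes of the pathway were read from 8 lists in macrophage-like cells, sorted against unsorted hyperoxia, beside a median of -0.28 for all genes compared, of which 4.02% were called higher and 14.1% lower. Of the Nrf2 partners and regulators, 9 of 13 had enough counts, 2 were called higher and 1 lower, and the median was 0.57. Sqstm1, encoding p62, which binds Keap1 and is itself a known Nrf2 target, was at 1953 against 206 CPM (3.25, 3.06 to 3.44). Mafk, a small Maf partner, was at 1.08 (0.53 to 1.69), and Dpp3, which also binds Keap1, at -1.16 (-1.61 to -0.70).

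Glutathione synthesis and use gave 3 called higher and 0 lower of 10, with a median of 0.25. Chac1, which degrades glutathione, had 218 counts against 1 (5.07, 2.58 to 10.38). Slc3a2, the heavy chain that partners the Slc7a11 product, was at 349 against 119 CPM (1.56, 1.31 to 1.82), and Gstm1, a glutathione transferase, at 1.02. The list thus held genes that make, use and degrade glutathione.

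Of the thioredoxin and peroxiredoxin genes, 3 were called higher and 1 lower of 9, with a median of 0.30. Prdx1, a cytosolic peroxiredoxin, was at 5537 against 1344 CPM (2.04, 1.97 to 2.12), Sesn2 at 1.26 (0.17 to 2.61) and Txn1, thioredoxin, at 1.04 (0.93 to 1.15). Txnip, which inhibits thioredoxin, was at 32.6 against 284 CPM (-3.12, -3.37 to -2.88). Of 6 NADPH supply genes, Pgd of the pentose phosphate pathway was called higher at 1.46 (0.59 to 2.48), and the median was 0.17.

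Detoxification and export gave 4 called higher and 0 lower of 9, with a median of 0.90. Osgin1 had 217 counts against 0, at least 3.48 on the log2 scale, Cbr3, a carbonyl reductase, was at 2.66 (1.72 to 3.80), Esd at 2.06 (1.88 to 2.25), and the exporter Abcc1 at 1.30 (0.77 to 1.88). In the heme and iron list 3 were called higher and 1 lower of 10, with a median of 0.20. Spic, a factor of heme-handling macrophages, had 150 against 4 counts (2.53, 1.15 to 4.43). Ftl1 at 2.19 and Fth1 at 1.82 are ferritin chains with near-identical copies in the genome, so that their values are uncertain. Fech, which makes heme, was at -1.04 (-1.47 to -0.59).

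The integrated stress response list had a median of 1.09 over all macrophage-like cells, with 7 called higher and 0 lower of 11. In alveolar macrophage-like cells alone its median was 0.56, with 4 called higher of 10, below the 0.79 of the detoxification and export list. Besides Chac1 and Slc3a2 from the glutathione list, Ddit3, encoding the factor CHOP, was at 92.2 against 14.9 CPM (2.62, 1.93 to 3.41) and Trib3 at 2.18 (0.93 to 3.83). The other genes called higher were Sesn2, Asns and Atf4. Slc7a11 is also a known target of Atf4, so that its level is not a reading of Nrf2 alone. Immediate early and heat shock genes, which tissue handling can raise, had 3 called higher and 2 lower of 14 and a median of -0.45, from Fos at -3.01 (-3.13 to -2.90) to Ier3 at 2.66 (2.26 to 3.09). In C1q macrophage-like cells alone their median was 0.77, with 5 called higher and 3 lower of 12. There 19.4% of all genes compared were called higher and 8.32% lower, with a median of 0.07. In alveolar macrophage-like cells the median of the list was -0.27, with 4 called higher and 4 lower of 13. All genes compared there had a median of -0.28, with 3.91% called higher and 13.5% lower. The part of the handling genes in the other ratios was not tested.

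**Figure D5:**
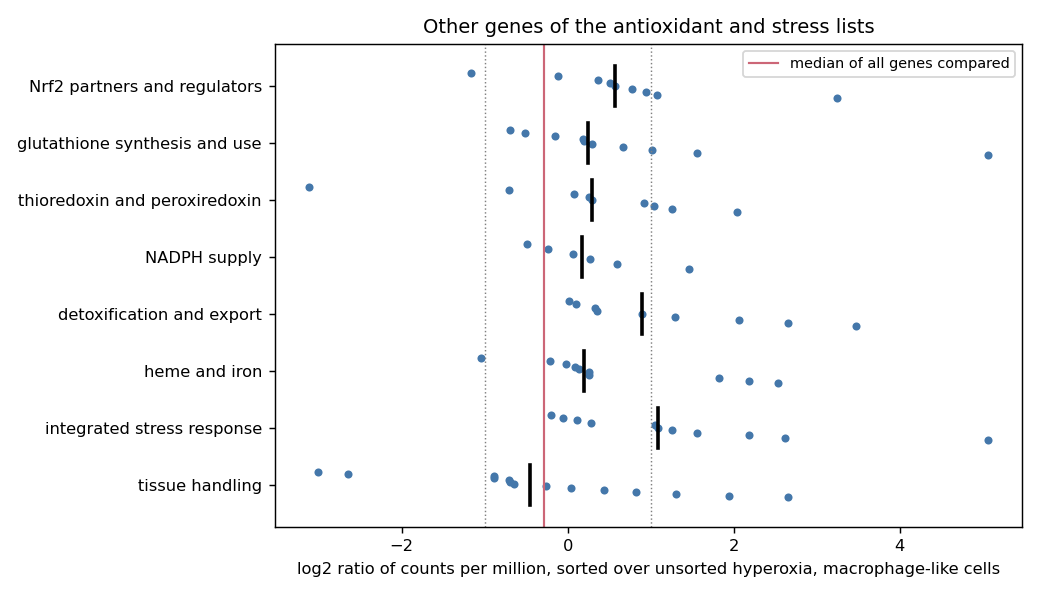
Log2 ratio of CPM, sorted over unsorted hyperoxia macrophage-like cells at pnd7, for the genes of 8 lists with enough counts. Blue points are genes, black bars list medians, dotted lines -1 and 1, and the red line the median of all genes at -0.28. Osgin1 (detoxification) is drawn at its lower bound of 3.48. The integrated stress response list has its median at 1.09 in these pooled cells.

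In the exposure contrasts few genes of any kind were called. Over all cells at pnd7, 0 genes of the 8 lists were called between hyperoxia and air, where 0.183% of all genes were called higher and 0.802% lower. At pnd60, where these shares were 0.271% and 0.248%, Ftl1 was called higher at 1.18 and Aldh3a1, an aldehyde dehydrogenase, lower at -1.26.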

How the data were processed

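Lung cells were profiled by 10x single-cell RNA-seq in 5 libraries, 1 per condition. The values are raw UMI counts per gene and barcode, which the authors deposited as matrices. The submitters' processing notes name Cell Ranger, mm10 and Seurat 3.2.1. The version of Cell Ranger, 3.1.0, is given in the matrices themselves. No other counting settings are given in the sources used here.

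The study's own limits on barcodes were applied (at least 700 and at most 8000 genes, and a mitochondrial share, taken from mt-Rnr1 and mt-Rnr2, below 5%). Cells were clustered by Leiden at resolution 2 on 3000 variable features and 50 components without integration, which departs from the study, and with the 10 genes and all listed genes left out. This gave 65 clusters, each named "X-like" where at least 3 markers of 1 of 21 classes were raised 2-fold and its leading genes did not go against the name. Deposited cell annotations were not used here, so rebuilt names may differ from the study's.

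Counts were summed per library and class and scaled to CPM. Ratios were given for genes with at least 100 counts in both groups together and called at a log2 ratio of 1. A group with 0 counts was set to 3 counts for a bound. Named genes were the 10 genes, listed genes called in a comparison (the 4 largest of a list where more were called), class markers, and the 3 genes most like Hmox1, Slc7a11, Nqo1 or Nfe2l2 in log2(CPM + 10), over groups of at least 20 cells and genes with 500 counts. Other listed genes are named by symbol where they complete a count. The genes and lists were chosen with earlier results of these data known.

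Scrublet marked 1, 4 and 4 cells of the air, hyperoxia and sorted libraries at pnd7 and 125 and 156 of the air and hyperoxia libraries at pnd60. At pnd7 this was 0.0433%, 0.321% and 0.811% of cells, the first 2 too few to rely on, and doublets were left in. Alternatives were a wider cell filter (500 genes, 10%), all barcodes, doublets removed, other totals, equal weight per cell, cells thinned to 1000 counts, resolution 1, classes by marker counts without clustering, and thresholds of 0.5 and 30 counts. Leaving out 1 cell was added after seeing the data. Promoters and their motif matches came from RefSeq (GRCm38.p6). Clustering used scanpy 1.11.5, leidenalg 0.10.2 and scikit-learn 1.9.0, intervals used scipy 1.17.1, and tables used pandas 2.3.3 and numpy 2.4.6 under Python 3.11.15, and the ratio step was tested on simulated data.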

Additional observations from a re-analysis of the deposited data

Results flagged for a closer look

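The ratio of Hmox1 between hyperoxia and air took opposite signs in different cell classes at both ages. At pnd7 it was 2.81 in alveolar macrophage-like cells and -0.96 (-1.57 to -0.38) in C1q macrophage-like cells, the latter on 38 counts from 19 hyperoxia cells and 73 counts from 20 air cells. Without the single hyperoxia cell that held 84.7% of the Hmox1 counts of its class, the alveolar value was 0.13. At pnd60 it was 0.64 in alveolar macrophage-like cells and -2.17 in nonclassical monocyte-like cells. The latter rested on 44 counts in 31 hyperoxia cells and 140 counts in 25 air cells, with a similar share of cells detected. The difference between the classes was not tested in any of these, since each condition had 1 library.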

How the results depend on the processing

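No paired analysis was possible because no condition had more than 1 library, so that none could be left out either. Of 77 alternatives of 9 counts and medians over the 10 genes, 68 stayed close to the reported value, 9 moved and 0 reversed a called value. Only a median of at least 1 in size could be marked as reversed. Among these results only the medians of sorted against unsorted hyperoxia cells were that large, so the 0 says little about the others. The median ratio of sorted to unsorted hyperoxia cells over all cells, 2.67, was 3.22 relative to the median of all genes, 2.83 with cells thinned to 1000 counts and 2.50 with all barcodes. The median of hyperoxia against air at pnd60 was -0.18 over all cells and -0.40 in macrophage-like cells after thinning, in place of -0.01 in both. The median of pnd60 against pnd7 in air, 0.35, was 0.12 relative to all genes, -0.10 with equal weight per cell, 0.00 after thinning and 1.0 with all barcodes, so that its sign depends on the processing. Hmox1 between hyperoxia and air in macrophage-like cells at pnd7 went from 1.97 to -0.20 without 1 cell, a choice made after seeing the data. In alveolar macrophage-like cells it went from 2.81 to 0.13 without that cell and was then no longer called. Other values of Hmox1 and Slc7a11 at pnd7 moved in size without that cell or with equal weight per cell. The cause of the other moves was not tested. Low counts limit Nqo1 everywhere and Slc7a11 and Srxn1 in most unsorted classes.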

Other observations

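At pnd60, 3 unsorted alveolar macrophage-like cells lay in the cluster made up mostly of sorted cells. Of 2 from the air library, 1 with 2303 counts held 42 Hmox1 counts (18237 CPM) and 3 Slc7a11 counts, and the other held 0 of both. The cell from the hyperoxia library, with 22068 counts, held 85 Hmox1 counts (3852 CPM). Hmox1 and Slc7a11 were left out of the clustering, and cells in this cluster did not all have a high Hmox1 level. At pnd7 it held 4 air cells with 0 to 3 Hmox1 counts each. It also held 6 hyperoxia cells at pnd7, 1 with 376 Hmox1 counts and the rest with 0 to 3.

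Aldh3a1, an aldehyde dehydrogenase known from airway epithelium, had 4 counts in air at pnd7, 115 in air at pnd60 and 54 in hyperoxia at pnd60. Its log2 ratio of pnd60 to pnd7 in air was 5.02 (3.63 to 6.92).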
